A study of Mus musculus with 6 samples.

Results

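The genes of the TNF superfamily and of the NF-kB pathway behind its receptors were described in 6 RNA sequencing libraries of a mouse cell line. Members were taken by gene symbol from the protein-coding rows of the deposited table: TNF ligands (Tnfsf), TNF receptors (Tnfrsf), TRAF adaptors, IKK kinases, NF-kB subunits, their inhibitors and feedback genes. They came to 58 of 15836 rows, 12968 of which are protein-coding. The line is labelled CAF (usually short for cancer-associated fibroblast), with a pancreatic tumor as its tissue. The 3 control libraries carry a wt genotype and a control treatment label, and the 3 MAOA-KO libraries a label of knockout of Maoa, an outer mitochondrial membrane enzyme that breaks down monoamines such as serotonin. A label field of the latter says knockdown instead, and no label gives the number of clones, a stimulus or whether replicates are separate cultures, so p-values measure the spread between these 6 libraries only.

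TNF ligands are trimeric, mostly membrane-bound cytokines that bind clustered receptors. The receptors recruit TRAF and TRADD adaptors, the RIPK1 kinase and cIAP ubiquitin ligases, which activate the IKK kinase complex. IKK marks IkB proteins for destruction and frees NF-kB dimers, which in turn switch on genes for cytokines and for the pathway's own inhibitors. A second, non-canonical branch runs through the kinase NIK (Map3k14) and the processing of the Nfkb2 product. In fibroblasts of tumors this pathway is known for driving inflammatory gene expression.

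Library totals lay between 18631359 and 26645441 counts, so that 3 counts correspond to 0.110 to 0.156 CPM (counts scaled to a common library size with TMM factors), a floor that allows for counting error alone. The row named Maoa had 1124, 1151 and 1221 counts in the controls and 545, 664 and 490 in MAOA-KO, but it lists a locus other than that of Maoa, so it does not settle the label. All 58 members list the locus, strand and symbol that GENCODE M21 gives for their identifier. Of 12 fibroblast markers 10 had a row and 6 were tested, with a summed level of 3500 to 3640 CPM in the control libraries and 1950 to 2000 CPM in MAOA-KO, nearly all of it Vim. Col1a1 reached a mean of 1.60 CPM in the controls and Pdgfra 1.30 CPM. Vim, Pdgfra, Pdgfrb and Col1a1 were called lower, whereas Acta2 (30.9 to 45.9 CPM) and Col3a1 (120.5 to 129 CPM) were called higher. The 6 epithelial markers summed to 2100 to 2230 CPM in the control libraries and 1210 to 1280 CPM in MAOA-KO. Krt18, Krt8, Krt19 and Krt7 averaged 926.8, 863.9, 350.6 and 13.6 CPM in the controls and were called lower. Cdh1, at 2.68 CPM in the controls, was not called, and Epcam, at 0.349 CPM, did not pass the count filter. The part of these marker shifts in the results below was not tested. None of the 4 T and NK cell markers had a row, and of 7 macrophage and leukocyte markers only Cd68 and Cd14 did. In bulk libraries, fewer cells of a type and less RNA per cell cannot be told apart.

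Most members differed by a small amount between the groups, and the 4 largest differences lay in ligands and receptors. Of the 58 members 53 passed the count filter, and 41 of them passed edgeR's quasi-likelihood test at a Benjamini-Hochberg threshold of 0.05, 25 higher and 16 lower in MAOA-KO. This is 77.4% of the tested members, beside 73.9% of the 13243 genes tested overall. By direction it is 47.2% higher and 30.2% lower, beside 37% and 36.9% of all tested genes. Of the member calls 61.0% were higher, and 71.8% with libraries scaled by their totals only, beside 50.1% and 58.7% of all calls. The median log2 fold change was 0.11 over the tested members and 0.00413 over all tested genes, and the median absolute log2 fold change was 0.28, beside 0.35 over all tested genes. Control and MAOA-KO levels did not overlap for 41 of the 53, or 77.4%, beside 75.1% of all tested genes. A change of at least 2-fold was called for 7 of the 53, or 13.2%, beside 14% of all tested genes. They are the ligands Tnfsf11 and Tnfsf13, the receptors Tnfrsf4, Tnfrsf9, Tnfrsf11b and Tnfrsf14, and Tnfaip8l1.

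**Figure D1:**
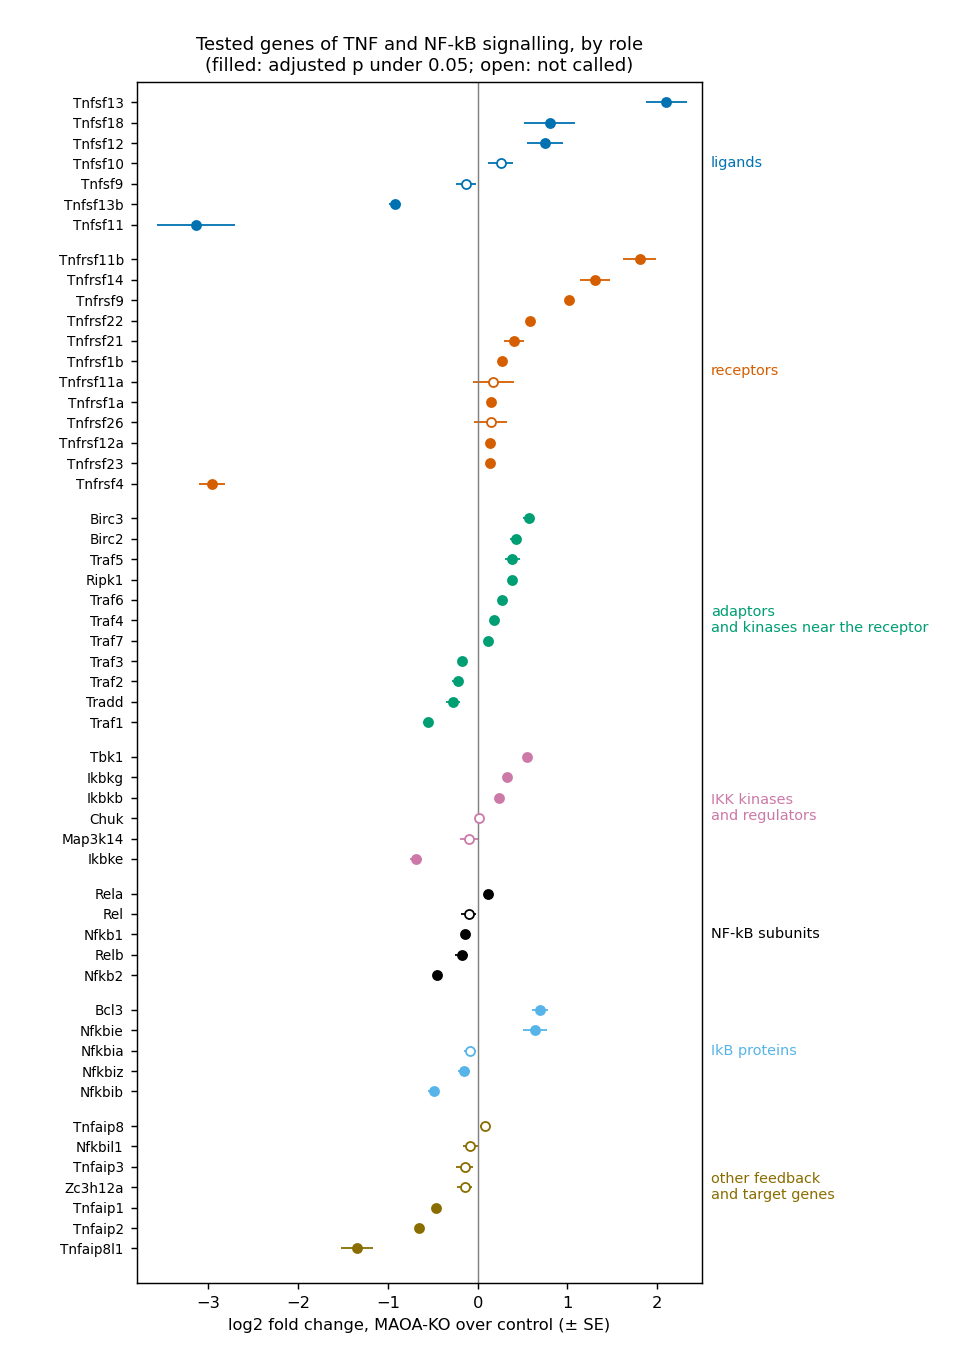
Log2 fold changes of MAOA-KO over control with standard errors for the 53 tested genes, grouped by role; filled points passed an adjusted p of 0.05 and open points did not. Ligands and receptors spread from -3.13 to 2.10, whereas the NF-kB subunits lie between -0.45 and 0.11. The ends of the wider range are Tnfsf11 and Tnfsf13, which passed the count filter through the group where they were high. Without them it runs from -2.96 (Tnfrsf4) to 1.81 (Tnfrsf11b).

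Tested against a change of 1.2-fold in place of no change, 25 members were called, 15 higher and 10 lower, which is 47.2% of the tested members beside 45.9% of all tested genes. Without any 1 library, 35 of the 41 calls kept their direction and side of the threshold; the 6 that did not in at least 1 such fit were Relb, Rela, Nfkbiz, Traf7, Tnfrsf1a and Tnfsf18. Tnfsf11, Tnfsf13 and Tnfsf18 passed the filter through the group where they were high, so their difference is in part a condition of having been tested. Of the other 50 members 38 were called, 23 higher and 15 lower, 5 of them by at least 2-fold. Of all tested genes, not restricted in this way, 73.9% were called, and 14% were called with at least 2-fold. An exact permutation test of 3 libraries against 3 cannot go below p = 0.1, so calls rest on the fit over all genes.

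Promoter sequences were set beside the counts, since several members are known targets of the pathway. RefSeq promoter windows (GRCm38.p6, 250 bases before to 50 after the start) were matched by symbol to 47 of the 58 members, and the kB consensus, the 10-base site of NF-kB dimers, was searched on both strands, with overlapping matches merged. It was found in 11 of the 47 members, or 23.4%, beside 12.4% of 11075 genes with a row and a window. By window it was in 21.7% of 60 member windows and in 8.46% of all 32851 windows. The latter include windows of genes without a row. Windows of genes with a row held the consensus more often than all windows did, so this contrast is wider than a matched one. It was present in 3 of 4 IkB genes, 2 of 3 NF-kB subunits and 3 of 7 other feedback and target genes, and in 0 of 6 ligands and 0 of 5 IKK genes. The following stretches, 5′ to 3′ on the strand of the gene with the matched bases in capitals and up to 25 bases on each side, show 1 site for each of 9 members described below, the pathway's own subunits, inhibitors and feedback genes among them.
Nfkb2, chr19:46304673-46304733, plus strand: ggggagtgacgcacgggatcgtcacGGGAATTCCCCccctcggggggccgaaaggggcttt
Rel, chr11:23771026-23771086, minus strand: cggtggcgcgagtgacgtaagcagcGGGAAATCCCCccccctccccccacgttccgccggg
Nfkbia, chr12:55492642-55492701, minus strand: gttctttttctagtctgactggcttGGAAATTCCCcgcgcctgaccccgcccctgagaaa
Nfkbie, chr17:45555569-45555628, plus strand: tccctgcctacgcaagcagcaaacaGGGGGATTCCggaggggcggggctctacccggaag
Tnfaip2, chr12:111442612-111442671, plus strand: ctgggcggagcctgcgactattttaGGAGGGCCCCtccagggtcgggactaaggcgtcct
Tnfaip3, chr10:19015501-19015560, minus strand: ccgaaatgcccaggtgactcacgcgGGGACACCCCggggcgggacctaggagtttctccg
Tnfaip8l1, chr17:56162318-56162377, plus strand: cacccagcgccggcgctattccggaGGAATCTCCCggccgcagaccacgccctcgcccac
Tnfrsf9, chr4:150927931-150927991, plus strand: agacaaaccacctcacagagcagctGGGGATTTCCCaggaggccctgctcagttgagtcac
Traf3, chr12:111166335-111166394, plus strand: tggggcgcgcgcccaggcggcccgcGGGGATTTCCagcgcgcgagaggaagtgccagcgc

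Genes with such a match moved both ways. Of the 10 tested members with a match Tnfrsf9, Bcl3 and Nfkbie rose, Nfkb2, Traf3, Tnfaip2 and Tnfaip8l1 fell, and Nfkbia, Rel and Tnfaip3 were not called, a median log2 fold change of -0.12. Of 32 tested members with a window and no match 18 rose and 8 fell, with a median of 0.14. Over all genes, the 1243 tested with a match were called in 77.1% of cases and the 8731 without in 75.8%, with medians of -0.00986 and -0.00362. Bcl3 and Tnfrsf25 also held a match, and Nfkb2 and Tnfaip3 held further ones. A match is a description of these letters and does not show that a factor binds there.

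**Figure D2:**
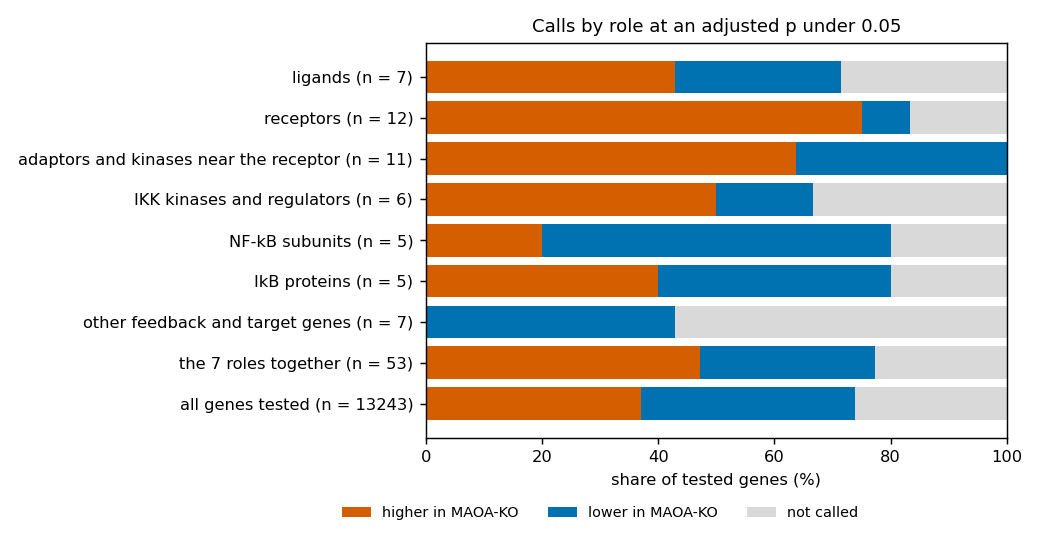
Shares of tested genes called higher, called lower or not called, by role, for the 53 tested members together (labelled the 7 roles together) and for all 13243 tested genes. The receptors have 9 of 12 higher, and the other feedback and target genes none higher and 3 of 7 lower. Of all tested genes 37% are higher and 36.9% lower.

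Among the ligands, the osteoclast factor Tnfsf11 (RANKL) and the B cell survival factor Tnfsf13b (BAFF) fell, and Tnfsf13 (APRIL), Tnfsf12 (TWEAK) and Tnfsf18 (the GITR ligand) rose. Of 8 ligands 7 were tested, 3 higher and 2 lower, beside 37% of all tested genes higher and 36.9% lower. Tnf itself, the founding member of the family, had no row in the table, which lists only genes with at least 10 counts over the 6 libraries. Tnfsf13b was measured at 29.99, 27.4 and 27.9 CPM in the controls and 15.9, 15.02 and 13.97 CPM in the MAOA-KO libraries. The 2 groups were far apart, and Tnfsf13b fell by 0.92 ± 0.06 on the log2 scale (SE; adjusted p = 1.78e-12, edgeR). Tnfsf13 was at 0.564, 0.796 and 0.369 CPM in the controls and 2.80, 2.45 and 2.19 CPM in the MAOA-KO libraries, with no overlap and a log2 fold change of 2.10 ± 0.23 (adjusted p = 9.45e-09). Tnfsf12 was at 0.911, 1.26 and 1.15 CPM in the controls and 1.83, 2.08 and 1.62 CPM in the MAOA-KO libraries, again without overlap (log2 fold change 0.75 ± 0.20, adjusted p = 0.00163).

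The genes of Tnfsf12 and Tnfsf13 lie side by side on the minus strand of chromosome 11, at chr11:69686250-69695849 and chr11:69682846-69685784 (GRCm38). Another coding row, Tnfsfm13, spans both and shares exons with each, and the antisense row Tnfsf13os overlaps Tnfsf13. Tnfsfm13 had 1, 2 and 0 counts in the controls and 3, 7 and 5 in MAOA-KO and was not tested. The strand setting of the counting is not given in the sources used here, so reads of these rows cannot be told apart with certainty. Tnfsf13os averaged 9.33 counts in the controls and 11.3 in MAOA-KO, beside 13.7 and 56.7 for Tnfsf13.

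Tnfsf11 was under the level of 1 CPM set for values by library and is given as counts, a choice made after its values were seen. It had 15, 20 and 23 counts in the controls and 2 in each MAOA-KO library. The ratio of the 2 groups' summed counts, scaled by effective library size, was 9.27, with an exact 95% interval of 4.01 to 26.3 that covers counting error only, and the edgeR adjusted p was 4.85e-07. Tnfsf18 had 17, 11 and 10 counts in the controls and 21, 27 and 16 in MAOA-KO (adjusted p = 0.0133); without control replicate 2 its adjusted p was 0.0551 and without control replicate 3 it was 0.0738, and with DESeq2 it was 0.0981. The 2 remaining ligands were not called, although Tnfsf10 was without control replicate 3 (adjusted p = 0.0355) and with library totals only (adjusted p = 0.0273). Tnfsf10 (TRAIL), a death ligand, averaged 3.02 CPM in the control and 3.60 CPM in the MAOA-KO libraries, and Tnfsf9, the ligand of Tnfrsf9, 5.44 and 5.01 CPM.

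Of the receptors, 15 had a row and 12 were tested. Of these 9 rose and Tnfrsf4 fell, beside 37% of all tested genes higher and 36.9% lower. Tnfrsf4 (OX40), a costimulatory receptor best known from T cells, was at 6.99, 6.79 and 6.80 CPM in the controls and 0.962, 0.914 and 0.730 CPM in the MAOA-KO libraries. Each MAOA-KO library lay far under each control, and the log2 fold change was -2.96 ± 0.15 (adjusted p = 2.25e-15 in edgeR). Tnfrsf9 (CD137), another costimulatory receptor of T cells, went the other way, from 26.04, 26.8 and 26.6 CPM in the controls to 54.95, 53.6 and 52.6 CPM in MAOA-KO. Neither group spread widely, and the log2 fold change was 1.02 ± 0.05 (adjusted p = 7.53e-16). Cd3d, Cd3e, Cd8a and Nkg7, which mark T and NK cells, had no row.

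Tnfrsf11b (osteoprotegerin), a secreted decoy that binds the Tnfsf11 product, rose as Tnfsf11 fell. It was at 0.781, 0.964 and 1.11 CPM in the controls and 2.80, 3.62 and 3.60 CPM in the MAOA-KO libraries (log2 fold change 1.81 ± 0.19, adjusted p = 3.06e-09). Tnfrsf11a (RANK), the signalling receptor of the same ligand, was low in both groups, at 1.17 ± 0.181 and 1.29 ± 0.356 CPM (mean ± SD, n = 3), and was not called (adjusted p = 0.502). Tnfrsf14 (HVEM), which binds both TNF ligands and the lymphocyte receptor BTLA, was at 1.30, 1.09 and 1.68 CPM in the controls and 3.44, 3.29 and 3.39 CPM in the MAOA-KO libraries. Its groups did not overlap, and its log2 fold change was 1.30 ± 0.17 (adjusted p = 1.5e-07).

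The 3 receptors of highest level, Tnfrsf12a, Tnfrsf1a and Tnfrsf23, rose by log2 fold changes of 0.14, 0.15 and 0.14. Per length, in the authors' deposited FPKM (counts scaled by gene length and library total), Tnfrsf12a (the TWEAK receptor Fn14) led all 58 members at 140.3 ± 6.42 in the controls and 164 ± 5.82 in MAOA-KO (mean ± SD, n = 3). The main TNF receptor Tnfrsf1a was at 87.6, 85.9 and 78.97 CPM in the controls and 94.7, 88.5 and 96.8 CPM in the MAOA-KO libraries. All 3 MAOA-KO libraries lay above all 3 controls by a narrow margin (log2 fold change 0.15 ± 0.05, adjusted p = 0.00637); without control replicate 3 the adjusted p was 0.0778 and without MAOA-KO replicate 3 it was 0.0517. Tnfrsf1b, the second TNF receptor, rose by 0.27 ± 0.04 and Tnfrsf12a by 0.14 ± 0.04 on the log2 scale, and Tnfrsf21 (death receptor DR6) by 0.40 ± 0.11.

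Neighbouring genes on distal chromosome 7 encode Tnfrsf22 and Tnfrsf23, the mouse decoy receptors for TRAIL, and Tnfrsf26, at chr7:143634806-143649661, chr7:143665809-143685872 and chr7:143607659-143628722 in this order, all on the minus strand. As these are close paralogs, their reads may be shared. Tnfrsf22 was at 54.5, 56.96 and 54.2 CPM in the controls and 77.6, 84.7 and 85.8 CPM in the MAOA-KO libraries, and the groups did not overlap (log2 fold change 0.58 ± 0.05, adjusted p = 2.38e-11). Tnfrsf23 rose by only 0.14 ± 0.04, and Tnfrsf26, at about 1.40 CPM in the controls, was not called (adjusted p = 0.519).

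Another 5 receptor genes lie near the end of chromosome 4 and did not move together. In order along the chromosome, Tnfrsf1b (chr4:145213463-145246870) and Tnfrsf9 (chr4:150914562-150946102) rose, and Tnfrsf25 (chr4:152115934-152120119), at 0 to 5 counts a library, was not tested. Tnfrsf14 (chr4:154921933-154928563) rose and Tnfrsf4 (chr4:156013843-156016612) fell. Tnfrsf13b (TACI) and Tnfrsf19 (TROY) were not tested either, at 2 to 5 and 2 to 13 counts a library.

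**Figure D3:**
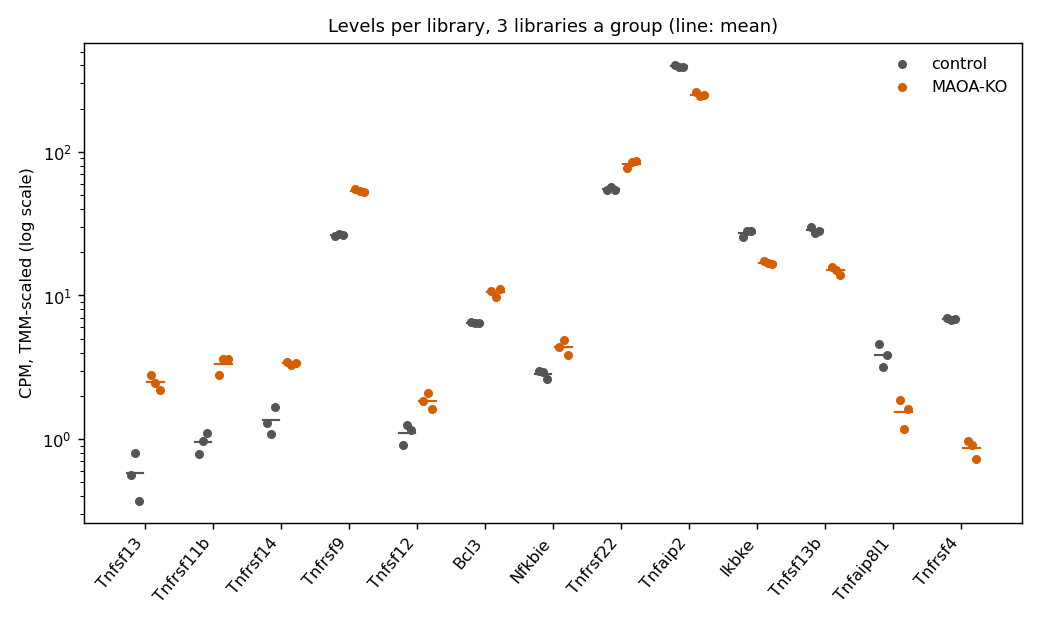
TMM-scaled CPM on a log scale in each of 3 control and 3 MAOA-KO libraries for the 13 genes called with a log2 fold change of at least 0.58 in size and 1 CPM or more on average in whichever group was higher; horizontal lines are group means. The groups are apart for each, from the largest rise, Tnfsf13 at the left, to the largest fall, Tnfrsf4 at the right. The genes were chosen by call and size of change, which favors such a gap, and 75.1% of all tested genes show no overlap. Tnfsf13 passed the count filter through the group where it was high.

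All 11 adaptors and kinases near the receptor were called, 7 higher and 4 lower, and none reached 2-fold. Of all tested genes 73.9% were called, 37% higher and 36.9% lower. Tested against a change of 1.2-fold, 4 of the 11 were called higher and 1 lower. Birc3 and Birc2, the cIAP ubiquitin ligases, rose by 0.57 ± 0.06 and 0.42 ± 0.06 on the log2 scale. Both lie next to each other on chromosome 9, at chr9:7848699-7873186 and chr9:7818227-7837064. Birc3 went from 16.7 ± 0.370 to 24.9 ± 0.211 CPM (mean ± SD of 3 libraries; adjusted p = 4.27e-09) and Birc2 from 26.4 ± 0.865 to 35.2 ± 2.66 CPM (adjusted p = 4.65e-07). The kinase Ripk1 went from 67.5 ± 4.74 to 88.03 ± 1.64 CPM (log2 fold change 0.38 ± 0.05); its exons overlap those of Serpinb6a on the other strand, which averaged 22090 counts in the controls and 13030 in MAOA-KO.

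Traf1, an adaptor that is itself a known NF-kB target, showed the largest fall of the group. It went from 30.7 ± 0.693 to 21.02 ± 0.706 CPM (log2 fold change -0.55 ± 0.06, adjusted p = 2.68e-09). Tradd, which links the TNF receptor to RIPK1, had a log2 fold change of -0.28 ± 0.08, Traf2 one of -0.22 ± 0.06 and Traf3, which holds NIK in check, one of -0.17 ± 0.05. With libraries scaled by their totals only, Traf2 (adjusted p = 0.0501) and Traf3 (adjusted p = 0.137) were not called, and with a GC and length correction Tradd was not (adjusted p = 0.0883). Traf5 and Traf6 rose by 0.39 ± 0.08 and 0.27 ± 0.05, and Traf4 and Traf7 by 0.19 ± 0.05 and 0.11 ± 0.04; the adjusted p of Traf7 was up to 0.129 without 1 library, that without control replicate 3. The TRAF family thus moved in both directions, with 4 members higher and 3 lower.

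Of the 6 IKK kinases and regulators 3 rose and 1 fell, beside 37% of all tested genes higher and 36.9% lower. The pair of IKK-related kinases that also serve interferon induction moved in opposite directions. Ikbke was at 25.3, 28.2 and 28.03 CPM in the controls and 17.4, 16.8 and 16.5 CPM in the MAOA-KO libraries, with no overlap (log2 fold change -0.69 ± 0.06, adjusted p = 3.27e-10). Tbk1 went from 40.5 ± 1.64 to 59.4 ± 2.03 CPM (log2 fold change 0.55 ± 0.05, adjusted p = 1.17e-10). Within the IKK complex, the scaffold Ikbkg (NEMO) rose by 0.33 ± 0.04 and the kinase Ikbkb by 0.24 ± 0.04. Ikbkg shares exon positions with G6pdx on the other strand, whose counts averaged 3997 in the controls and 2553 in MAOA-KO. The other catalytic subunit, Chuk, had a log2 fold change of 0.02 ± 0.05 (adjusted p = 0.721), -0.125 (adjusted p = 0.00138) after GC and length correction and 0.106 (adjusted p = 0.0474) with libraries scaled by their totals only, so that its direction and call depended on the scaling. Map3k14 (NIK) averaged 7.21 and 6.80 CPM and was not called.

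The 5 NF-kB subunits stayed between log2 fold changes of -0.45 and 0.11, with 3 lower, 1 higher and 1 not called. Of all tested genes 36.9% were lower and 37% higher. Nfkb2, the precursor subunit of the non-canonical branch, showed the largest difference. It was at 65.3, 61.7 and 61.5 CPM in the controls and 49.1, 44.1 and 45.2 CPM in the MAOA-KO libraries, with no overlap (log2 fold change -0.45 ± 0.05, adjusted p = 8.32e-09). Nfkb1, the precursor subunit of the canonical branch, was at 129, 124 and 132 CPM in the controls and 115, 114 and 119.5 CPM in the MAOA-KO libraries, a narrow gap with a log2 fold change of -0.15 ± 0.04 (adjusted p = 0.00207). Rela, the main activating subunit, was at 72.1, 69.7 and 69.01 CPM in the controls and 78.5, 71.97 and 77.7 CPM in the MAOA-KO libraries. Its groups overlapped, and its log2 fold change was 0.11 ± 0.04 (adjusted p = 0.0276).

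Relb, the partner of the Nfkb2 product, was at 21.4, 19.6 and 19.8 CPM in the controls and 19.1, 16.1 and 18.8 CPM in the MAOA-KO libraries. The groups lay just apart (log2 fold change -0.18 ± 0.07, adjusted p = 0.0281). Rel, a subunit prominent in lymphocytes, was at 12.1, 14.04 and 13.1 CPM in the controls and 10.9, 13.4 and 12.2 CPM in the MAOA-KO libraries, with overlapping groups and no call (adjusted p = 0.302). After GC and length correction the log2 fold change of Rel was -0.265 (adjusted p = 0.00137). Nfkb1 and Relb were not called with libraries scaled by their totals only (adjusted p = 0.189 and 0.258), nor were Rela and Relb with DESeq2 (adjusted p = 0.081 and 0.0796); without 1 library the adjusted p of Rela rose to up to 0.109 and that of Relb to up to 0.267. Per length, Nfkb1 and Rela were the most abundant subunits in both groups, at 30.3 ± 0.997 and 25.1 ± 0.597 FPKM in the controls, and Rel the least, at 1.70 ± 0.125 FPKM.

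**Figure D4:**
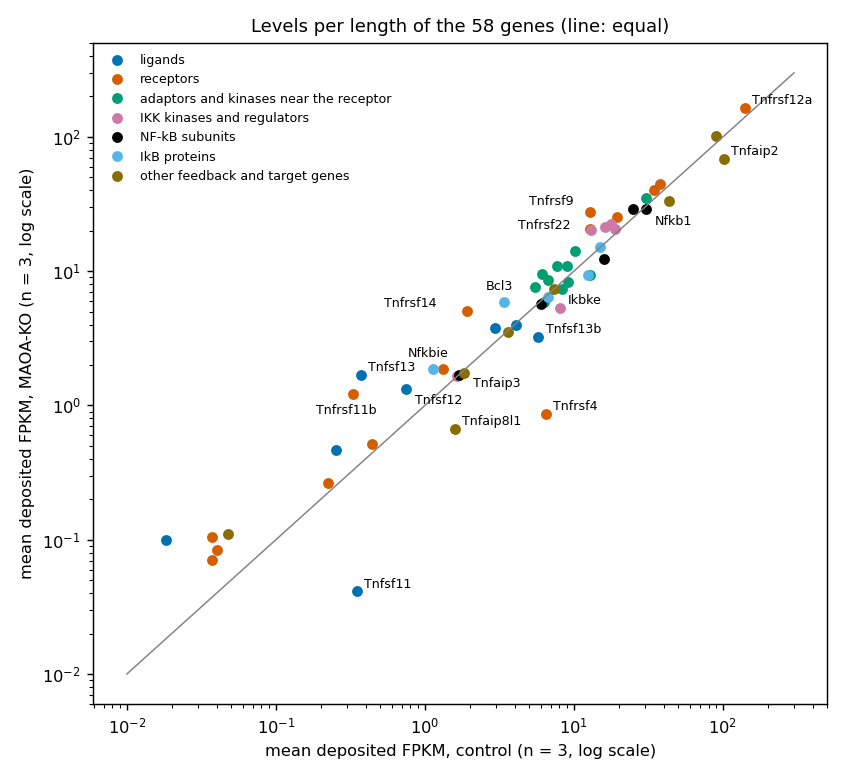
Mean deposited FPKM (3 libraries a group) in control against MAOA-KO on log scales for the 58 genes, coloured by role, with a line of equal level. Most genes lie near the line, and the 6 called 2-fold changes other than Tnfrsf9 are at 0.0413 to 6.46 FPKM; FPKM is scaled by library totals and not by TMM factors.

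The IkB proteins, which hold NF-kB dimers or steer them in the nucleus, split evenly, with 2 higher, 2 lower and Nfkbia not called. Of all tested genes 37% were higher and 36.9% lower. Bcl3, a nuclear IkB that can activate transcription, was at 6.55, 6.41 and 6.47 CPM in the controls and 10.7, 9.76 and 11.2 CPM in the MAOA-KO libraries. The MAOA-KO libraries were all above the controls (log2 fold change 0.69 ± 0.09, adjusted p = 1.72e-07). Nfkbie was at 2.99, 2.93 and 2.62 CPM in the controls and 4.40, 4.90 and 3.86 CPM in the MAOA-KO libraries, without overlap (log2 fold change 0.64 ± 0.13, adjusted p = 0.000118). Nfkbib went from 26.4 ± 1.29 to 18.9 ± 0.945 CPM (log2 fold change -0.49 ± 0.06, adjusted p = 1.15e-07), at exons that overlap those of Sirt2 on the other strand, which averaged 1591 and 2404 counts. Nfkbiz, a nuclear IkB induced by interleukins, had a log2 fold change of -0.15 ± 0.06 (adjusted p = 0.0416), and without MAOA-KO replicate 1 its adjusted p was 0.334. It kept its call in only 5 of 15 alternatives. The call was also lost without any 1 control library (adjusted p = 0.055 to 0.0991) and with DESeq2 (adjusted p = 0.0941).

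Nfkbia, the classical inhibitor and first feedback target of the pathway, was at 24.9, 25.9 and 22.4 CPM in the controls and 24.5, 21.5 and 23.2 CPM in the MAOA-KO libraries. The groups overlapped and it was not called (log2 fold change -0.09 ± 0.07, adjusted p = 0.244), and its log2 fold change was 0.00111 when libraries were scaled by totals only. Tnfaip3, the ubiquitin-editing enzyme that ends TNF signalling, was at 8.85, 8.55 and 7.62 CPM in the controls and 7.42, 7.68 and 7.51 CPM in the MAOA-KO libraries. It too was not called (log2 fold change -0.14 ± 0.09, adjusted p = 0.162), although its adjusted p was 0.0387 after GC and length correction. Zc3h12a, an RNase that degrades cytokine messages, averaged 10.3 and 9.36 CPM and was not called (adjusted p = 0.137). Cd83 had no row.

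Of the 8 other feedback and target genes 7 were tested, 3 fell and 0 were called higher. The called share was 42.9%, beside 73.9% of all tested genes, 37% higher and 36.9% lower. Tnfaip2, a TNF-induced gene, was at 406, 393 and 388 CPM in the controls and 261, 244 and 248 CPM in the MAOA-KO libraries. Its groups were well apart (log2 fold change -0.66 ± 0.04, adjusted p = 2.78e-14). Per length Tnfaip2 was second among the members in the controls, at 102 ± 2.44 FPKM. In MAOA-KO it was under Tnfaip8, at 68.6 ± 2.73 beside 101 ± 3.64 FPKM. That order rests on the lengths behind the FPKM, 3763 bases for Tnfaip2 and 528 for Tnfaip8. In CPM Tnfaip2 was at 250.7 and Tnfaip8 at 52.0 in MAOA-KO. Tnfaip1, an adaptor of a cullin ubiquitin ligase, went from 169 ± 2.47 to 123 ± 3.83 CPM (log2 fold change -0.47 ± 0.04). Tnfaip8l1 was at 4.60, 3.19 and 3.85 CPM in the controls and 1.88, 1.17 and 1.62 CPM in the MAOA-KO libraries, with the lowest control above the highest MAOA-KO library (log2 fold change -1.34 ± 0.18, adjusted p = 2.39e-07). Tnfaip8 (adjusted p = 0.137) and Nfkbil1 (adjusted p = 0.409) were not called, and Tnfaip6, a hyaluronan-binding secreted protein, had 2 to 5 counts a library and was not tested.

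Pathway genes outside the membership, listed with earlier results of these data known, also moved in both directions. Of 39 listed adaptors and regulators that link TNF, Toll-like and interleukin receptors to NF-kB, 36 were tested, and 18 rose and 12 fell; their median log2 fold change was 0.0933, and the called share was 83.3%, beside 73.9% of all tested genes. Tifa, a TRAF-binding adaptor, rose from 8.53 ± 0.656 to 28.2 ± 0.744 CPM (mean ± SD of 3 libraries; log2 fold change 1.72 ± 0.07, adjusted p = 3.23e-17, edgeR). Tnip3, a partner of the Tnfaip3 product, rose by 1.78 ± 0.14 on the log2 scale from 2.06 CPM. Optn, an ubiquitin-binding autophagy receptor, rose by 0.64 ± 0.06, and the paracaspase Malt1 by 0.58 ± 0.06. Bcl10, the partner of Malt1, had a log2 fold change of -0.37 ± 0.05, the necroptosis effector Mlkl one of -0.43 ± 0.05, the kinase Map3k3 one of -0.34 ± 0.04 and the caspase inhibitor Cflar one of -0.26 ± 0.04. Ripk3 and Edar had no row.

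Textbook NF-kB target genes outside the membership moved in both directions too. Of 42 listed, 38 had a row and 35 were tested. Of these 11 rose and 19 fell, a called share of 85.7% beside 73.9% of all tested genes. The list was chosen with earlier results of these data known, so this share cannot test whether such targets changed more often than other genes. Sele, Saa3, Cxcl2, Csf2 and Il6, 5 of those that fell, reached the count filter in all 3 libraries of the controls only, where they were high. The other 30 tested had 11 higher and 14 lower, with a median absolute log2 fold change of 0.58. A change of at least 2-fold was called for 12 of these 30. Over all tested genes, not restricted in this way, 14% were called with at least 2-fold and the median absolute log2 fold change was 0.35. Many of the listed targets answer to other pathways too. The prostaglandin enzyme Ptgs2 and the chemokine Cxcl10, the 2 falls of lowest p in this list, had log2 fold changes of -2.47 ± 0.05 and -2.71 ± 0.07. Ier3, an early response gene, went from 114 ± 3.47 to 46.8 ± 2.75 CPM (adjusted p = 2.61e-18) and the cytokine Lif from 38.5 ± 0.360 to 15.9 ± 0.562 CPM (adjusted p = 1.41e-16). Among the rises were complement C3, by 2.63 ± 0.05, the adhesion molecule Vcam1, from 70.9 ± 1.60 to 121 ± 2.52 CPM, the immunoproteasome subunit Psmb9, by 1.26 ± 0.08, and the chemokine Ccl2, by 0.72 ± 0.05. The 5 tested targets without a call, named after their values were seen, were Dusp1, Cx3cl1, Tlr2, Sod2 and Icam1.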

How the data were processed

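RNA was sequenced from 3 control and 3 MAOA-KO libraries, grouped by the labels' titles. The deposited table gives whole-number read counts per gene, per the file headers; the authors' FPKM values follow from them with 1 length per gene. The authors' own log2 fold change, p-value and −log10 columns, per the file headers, were not used for results. The file headers name GRCm38.p6, and the submitters' processing notes name mm10. Aligner, counter and strand setting: not given in the sources used here. A protocol in the labels speaks of small RNA enrichment, but 97.8% to 98.3% of counts lay on protein-coding genes. The smallest row total is 10, so the table had been filtered.

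Genes were kept by filterByExpr (13243 tested), scaled by TMM (0.968 to 0.972 in the controls, 1.03 in MAOA-KO) and tested with edgeR 4.0.16 in R 4.3.3, a robust quasi-likelihood fit with group as its term and Benjamini-Hochberg adjustment over all tested genes at 0.05. Standard errors are the log2 fold change divided by the square root of F. The common biological coefficient of variation was 0.0332. The members and lists were chosen with earlier results of these data known. Values by library are given for members called with an absolute log2 fold change of at least 0.58 and 1 CPM or more on average in whichever group was higher, and for the NF-kB subunits, Nfkbia, Tnfaip3 and Tnfrsf1a; from the outside lists, the 4 genes of lowest p in each direction are named. 1 further row of the family is not reported here.

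Libraries of 1 group were not copies of each other (mean chi-square per gene 1.99 to 4.53). Deviations from group means of same-numbered libraries correlated at 0.330, 0.195 and 0.169 over 10075 genes of at least 5 CPM. Each was over 0.1, so the numbers may pair the libraries. However, control 3 correlated more with MAOA-KO 2 (0.222). Over all tested genes the same-numbered values were 0.088, 0.0576 and 0.0346, so the pairing is uncertain, and the main fit did not use it. The replicate number entered as a block among the alternatives only. The other alternatives were DESeq2 1.42.0, its size factors in edgeR, library totals only, no filter, a mean of at least 1 CPM, a test against 1.2-fold, each library left out, and, added after seeing the data, GC and length correction with and without the replicate block.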

Additional observations from a re-analysis of the deposited data

How the results depend on the processing

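Over 793 repeats of member results under 15 alternatives, 724 left the call and its direction as they were, 50 lost the call, 8 gained one and 11 changed sign. Of the 41 calls 31 held under all alternatives other than the test against 1.2-fold. Size factors of DESeq2 in edgeR changed no call of a member. The replicate block changed no call of a member either, with 25 higher and 16 lower, beside 5099 higher and 5106 lower over all genes.

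Tested against 1.2-fold, 3120 genes were higher and 2959 lower, and 15 and 10 members. The same test left 4 receptors higher and 1 lower, and 4 adaptors higher and 1 lower. It left 0 NF-kB subunits higher and 1 lower, and 2 IkB genes higher and 1 lower. In the outside lists it left 7 adaptors and regulators higher and 3 lower, and 7 target genes higher and 16 lower. Requiring a larger change makes fewer calls by construction. With library totals only, 1 IkB gene, 1 NF-kB subunit and 2 adaptors were lower and 1 other feedback gene was higher, Tnfaip8, and the median of all genes moved to 0.0905. With DESeq2, 1 IkB gene was lower and 0 NF-kB subunits higher. With a mean of at least 1 CPM, 1 IkB gene and 1 ligand were lower, since Tnfsf11 is then not tested. GC and length correction, added after seeing the data, gave 2 IKK genes and 1 IkB gene lower, and 2 and 1 with the replicate block. Without 1 library, lower IkB genes numbered 1 to 2 and higher NF-kB subunits 0 to 1. Except where stated, the cause was not tested.

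Sign changes came only in members without a call in the main test. Chuk ranged from -0.036 to 0.0522 without 1 library, and was -0.125 with GC and length correction and -0.124 with the replicate block added, both called lower, while library totals only gave 0.106, called higher (adjusted p = 0.0474). Map3k14 ranged from -0.194 to 0.00808 without 1 library. Nfkbia was 0.00111 with library totals only, 0.0318 with GC and length correction and 0.0294 with the block added. Nfkbil1 was 0.0061, 0.095 and 0.0969 in the same order. Depth limits the genes under about 1 CPM, of which Tnfsf11 had 2 counts in each MAOA-KO library.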
